A study of Mus musculus with 11 samples.

Results

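The 6 genes Tbx21, Stat4, Il12rb2, Runx3, Hlx and Eomes encode regulators of the Th1 fate, and the nuclear surroundings of each were read from Hi-C contact maps of mouse Th1 cells. Hi-C cuts crosslinked chromatin with a restriction enzyme, joins ends that lie close together, and records each joined pair of fragment ends as a contact. Each gene was represented by a window of 500 kb, 250 kb on each side of its position in mm9, so the members were 6 windows of 4816 autosomal windows of that size in all. They were chosen by gene name and position, not by any contact value.

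The maps were 10 single cells, a pool of single-cell maps, and an ensemble map of a cell population. Bgl II was the enzyme for the ensemble and for cells 1 to 7, 9 and 10, whereas cell 8 was cut by Dpn II. All came from spleens of male C57BL/6 mice, where the suspension was stimulated with anti-CD3, CD4+ cells were selected on beads, and the cells were grown on in IL-2, per the labels' protocols. No genotype, treatment, dose or age distinguishes the maps, the labels name no separate animals or cultures, and the protocol names no polarising cytokine. Contact maps hold no expression values, so the Th1 label was not checked against marker genes.

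Th1 cells are helper T cells that secrete interferon gamma and direct responses to intracellular microbes. In the textbook scheme, interleukin 12 binds a receptor whose inducible chain is encoded by Il12rb2, the receptor activates the signal transducer encoded by Stat4, and Tbx21 encodes T-bet, the T-box factor that directs the Th1 programme. Runx3 and Hlx encode a Runt-domain factor and a homeobox factor that act together with T-bet, and Eomes encodes a T-box relative of T-bet best known in cytotoxic T cells and natural killer cells.

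The promoters of Tbx21, Runx3 and Eomes are shown because these 3 windows had the highest shares of contacts with other chromosomes in the pool, and because Tbx21 and Runx3 were the pair of members that met each other most. Each sequence is the 250 bases before an annotated start, 5′ to 3′ in the gene's own direction, from RefSeq on GRCm38.p6. Capitals mark matches to the Runx motif TGTGGT on either strand.
Tbx21, chromosome 11, minus strand: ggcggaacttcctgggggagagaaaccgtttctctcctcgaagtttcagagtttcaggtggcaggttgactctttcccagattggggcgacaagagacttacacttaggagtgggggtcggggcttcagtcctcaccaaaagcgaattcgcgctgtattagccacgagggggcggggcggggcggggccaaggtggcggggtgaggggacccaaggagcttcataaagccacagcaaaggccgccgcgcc
Runx3 distal start, chromosome 4, plus strand: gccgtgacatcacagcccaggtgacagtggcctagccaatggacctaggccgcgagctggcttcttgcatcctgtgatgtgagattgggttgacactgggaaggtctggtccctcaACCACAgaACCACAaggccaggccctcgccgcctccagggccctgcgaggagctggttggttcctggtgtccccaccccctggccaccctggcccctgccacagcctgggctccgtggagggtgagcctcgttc
Runx3 proximal start, chromosome 4, plus strand: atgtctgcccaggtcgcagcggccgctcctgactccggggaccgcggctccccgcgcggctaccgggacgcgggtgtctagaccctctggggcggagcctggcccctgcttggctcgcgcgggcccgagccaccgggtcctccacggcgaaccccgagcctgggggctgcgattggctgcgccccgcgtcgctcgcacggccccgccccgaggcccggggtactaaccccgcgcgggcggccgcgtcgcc
Eomes, chromosome 9, plus strand: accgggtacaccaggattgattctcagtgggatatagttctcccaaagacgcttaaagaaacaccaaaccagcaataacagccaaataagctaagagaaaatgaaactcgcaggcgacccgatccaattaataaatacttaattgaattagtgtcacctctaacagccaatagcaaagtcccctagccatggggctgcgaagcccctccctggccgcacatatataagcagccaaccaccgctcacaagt

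All 6 members had an entry among 32851 RefSeq promoters, and Stat4 and Runx3 had 2 starts each. The distal Runx3 promoter held 2 Runx matches side by side, the proximal one held 0, and so did every promoter of the other 5 members. Of all promoters, 14.0% held at least 1. The proximal Runx3 promoter was the richest in G and C, at 78.8% with 38 CpG, against a median of 52.4% and 6 CpG over all promoters, and the distal one had 65.2% and 8 CpG. Tbx21 had 60.8% and 16 CpG, while Eomes, at 46.4% and 8 CpG, lay below the median in G and C. The STAT motif TTCNNNGAA, held by 7.02% of all promoters, matched once upstream of Il12rb2 and nowhere upstream of the other members, and the T-box letters GGTGTG, held by 16.3%, matched none. The Bgl II site AGATCT, which sets where contacts can be read, was in none of these stretches, and 6.37% of promoters held one. Both orientations were searched, no match overlapped another, and a match describes the letters only.

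The Il12rb2 window was chr6:67030001-67530000 and that of Stat4 chr1:51850001-52350000. Tbx21 lay in chr11:96720001-97220000, Runx3 in chr4:134450001-134950000, Hlx in chr1:186300001-186800000 and Eomes in chr9:118140001-118640000. Exons and introns were not placed, since no mm9 annotation was used here, and other genes of the interleukin 12 and interferon gamma pathways were given no values for the same reason. In the RefSeq gene order, Il23r, a receptor chain for interleukin 23, is the next protein-coding gene after Il12rb2 on the side of higher coordinates. Tbx21 lies between Osbpl7 and Tbkbp1, Runx3 between Syf2 and Clic4, and Hlx between Dusp10 and Mtarc1.

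The ensemble held 51834382 contacts, the pool 2294791, the Bgl II cells 11156 to 30665 and cell 8 12225. Trans contacts, those between chromosomes, made up 50.7% of the ensemble and 20.2% of the pool. The 9 Bgl II cells are part of the pool and made up 7.62% of it. A member window had 271 to 421 fragment ends, fewest in Eomes and most in Tbx21, whose number exceeded 99.5% of autosomal windows. Each member is therefore set beside windows that touch no member and have a fragment-end number within 10% of its own, 135 for Tbx21 and 1477 to 2132 for the others. With 1 ensemble and 1 pool there is no replicate check on these values, and the place of a member among its matched windows is a description. Wilson and Poisson intervals, at 95%, cover counting error only.

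Members mostly lay in the compartment that is dense in fragment ends. The compartment score is the first eigenvector of each chromosome's contact correlations in 250 kb bins, and class 1 is the side above 0. The score was 0.76 at Il12rb2, 1.28 at Stat4, 1.30 at Tbx21, 1.44 at Runx3 and 0.96 at Eomes, so 5 of 6 members were in class 1, against 40% of other autosomal windows. Hlx was the exception, with -0.10, on the class 2 side but close to the border between the classes, and at 0.0273 in the matrix without balancing. Scores above 1 were seen at Stat4, Tbx21 and Runx3, against 23.1% of other windows.

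Set beside windows of similar fragment-end number, the members spread apart. Eomes scored above 85.3% of its matched windows, whose median was -0.61, and Stat4 above 83.7% of its own, with a median of -0.27. Runx3 scored above 77.5%, Il12rb2 above 59.2% and Hlx above 52.0% of theirs. Tbx21 scored above only 27.4% of its matched windows, whose median was 1.54. Class 1 held 133 of 135 matched windows of Tbx21, 913 of 1550 of Il12rb2 and 892 of 1477 of Runx3. For Stat4 it held 894 of 2132, for Hlx 911 of 2014 and for Eomes 639 of 2116.

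**Figure D1:**
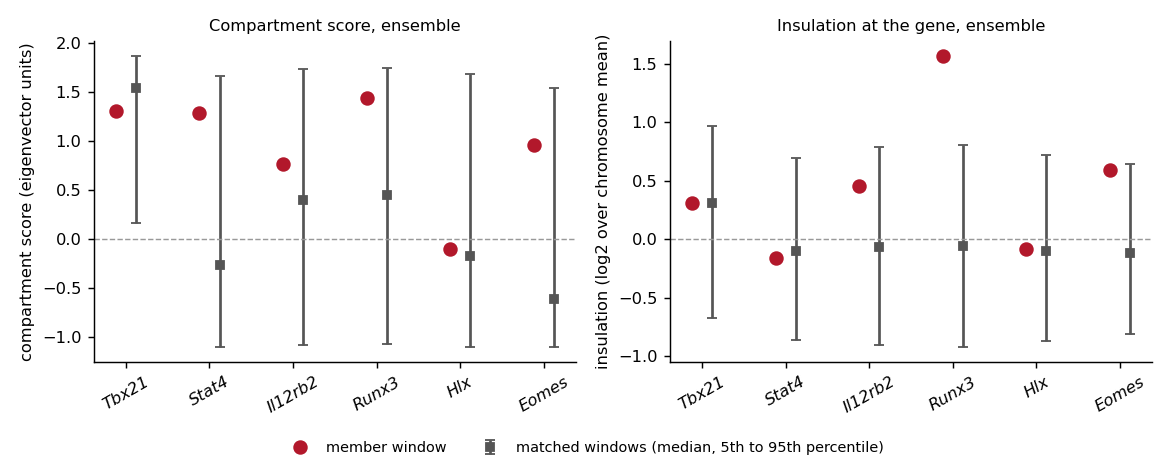
Compartment score and insulation at the 6 members in the ensemble (left and right panel, y axes), member windows in red to the left of the median and 5th to 95th percentile of their matched windows in grey. Hlx is the only member below 0 in compartment score, and Runx3 at 1.57 is above the range of its matched windows in insulation.

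Insulation measures how many contacts cross a 50 kb bin from the 500 kb on one side to the 500 kb on the other, as a log2 ratio to the chromosome mean, so that low values mark domain boundaries. It was 0.45 at Il12rb2, -0.16 at Stat4, 0.31 at Tbx21, 1.57 at Runx3, -0.09 at Hlx and 0.60 at Eomes. Values above 0, more crossing contacts than the chromosome mean, were thus found at 4 of 6 members, against 40.9% of other windows. Without balancing Stat4 and Hlx were above 0 too, at 0.14 and 0.44, and in the pool Hlx was at 0.13. Runx3 stood above 100% of its 1460 matched windows with a value in the ensemble, and at 0.91 above 97.0% in the pool. Eomes stood above 93.7% in the ensemble and, at 0.46, above 85.6% in the pool. Among matched windows of class 1 alone, chosen after seeing the data, Eomes was above 80.5% in the ensemble and 67.7% in the pool. Runx3 was above 100% and 95.4% of its own. Tbx21 and Hlx lay near the middle of their matched windows, above 50.4% and 51.4%.

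Domains, taken between minima of insulation with a prominence of at least 0.1, ran from 500 kb to 2700 kb. Stat4 was in a domain of 500 kb, chr1:51650001-52150000, whose upper boundary was the bin 100 kb above the gene's bin. Eomes was in one of 500 kb, chr9:117900001-118400000, with a boundary in the next bin, 50 kb above. Runx3 was in a domain of 550 kb, chr4:134450001-135000000, and even the boundaries of that domain had insulation of 1.08 and 1.03, above the chromosome mean. Tbx21 was in a domain of 800 kb, Il12rb2 in one of 1100 kb and Hlx in one of 2700 kb. The Hlx domain spans bins without an insulation value, among them those 950 and 1000 kb below the gene. No boundary could be called in such bins, so its length is uncertain. At least 1 boundary lay within the window of Tbx21, Stat4, Runx3 and Eomes, 4 of 6 members, against 60.2% of other windows. No member's own 50 kb bin was a boundary.

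The upper boundary called for the Il12rb2 domain had the lowest insulation, -1.16 at 300 kb from the gene. That stretch has few places to cut. The bins at 300, 350 and 400 kb held 9, 2 and 7 fragment ends and the bins at 350 to 1000 kb gave no ensemble insulation, whereas the pool showed -0.17 at 300 kb. For the calling, bins without a value were set above the chromosome's highest value. The last valued bin of a falling track is then called a minimum. The bin at 300 kb is such a bin, so this boundary and the domain length of 1100 kb are set by where the values end. The part of the sparse fragment ends in the fall before it was not tested.

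**Figure D2:**
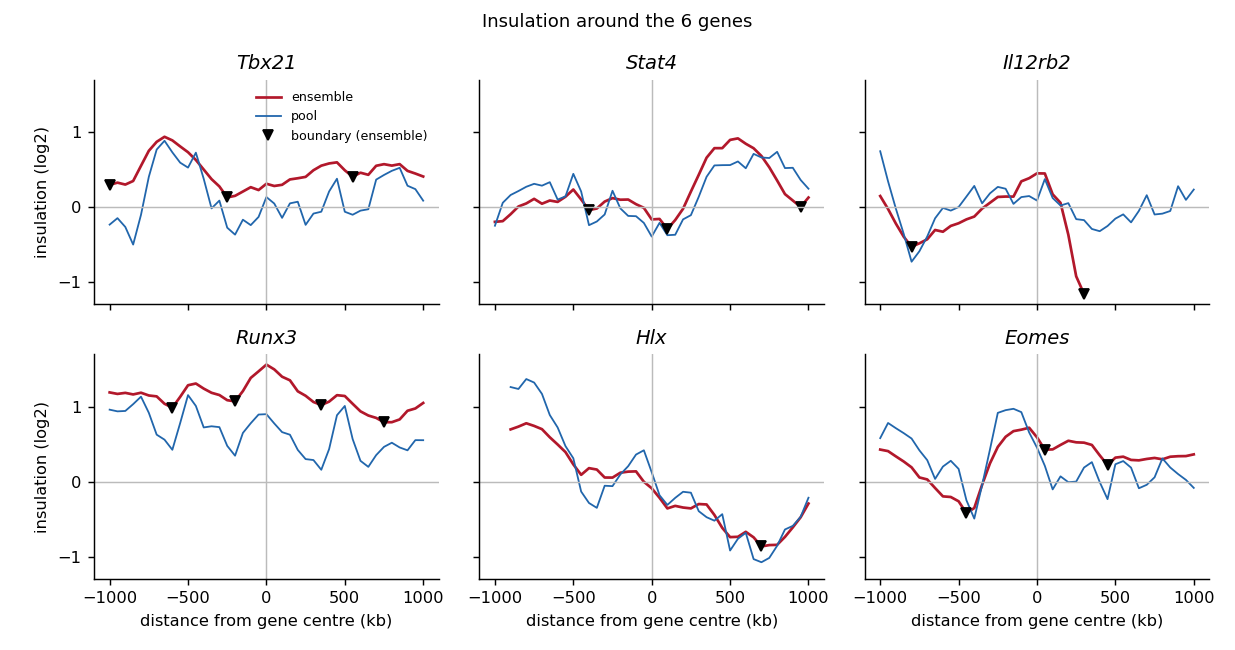
Insulation (y axis, log2 over the chromosome mean) within 1000 kb of each gene (x axis, distance in kb), ensemble in red, pool in blue, triangles for ensemble boundaries. Runx3 stays above 0 throughout, Hlx falls across the gene toward -0.86 at its upper boundary, and Il12rb2 drops to -1.16 before the bins without a value.

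Seen from the gene's own 50 kb bin, contacts were set over the number expected from distance on the same chromosome. Runx3 had 401 ensemble contacts with the 50 to 250 kb on its lower side and 402 on its upper side, where 72.9 were expected on each, which is 5.50 times (4.98 to 6.07) and 5.51 times (4.99 to 6.08). In the pool the same flanks gave 15 and 11 contacts for 7.59 expected, 1.98 times (1.11 to 3.26) and 1.45 times (0.72 to 2.59). The excess in the ensemble was even on both sides, and the pool values were lower. The expected numbers use distance alone, and the Runx3 window averaged 143 ensemble contact ends for each fragment end, above 98.8% of matched windows, but 3.07 in the pool, above only 6.64%.

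Stat4 was lopsided. On its upper side, 208 ensemble contacts at 50 to 250 kb stood against 56.7 expected, 3.67 times (3.19 to 4.20), while 77 on the lower side gave 1.36 times (1.07 to 1.70). The pool had the same order, with 24 contacts above, 3.22 times (2.06 to 4.79), and 6 below, 0.81 times (0.30 to 1.75). From 50 to 250 kb outward, the bins held 50, 32, 18, 35 and 25 fragment ends above and 29, 20, 27, 20 and 30 below. The expectation leaves fragment ends out, and their part in the difference between the sides was not tested. The lower side had its own local high, with 32 contacts for 5.07 expected in the bin 400 kb away, 6.31 times, and 2 for 0.455 in the pool.

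Eomes was lopsided the other way. It had 206 contacts at 50 to 250 kb on the lower side, inside its domain, for 85.7 expected, 2.40 times (2.09 to 2.76). Across the nearby boundary there were 64, 0.75 times (0.58 to 0.95). The pool gave 13 and 7 contacts for 8.93 expected, with intervals that overlapped. Here the bins from 50 to 250 kb outward held 39, 35, 42, 27 and 20 fragment ends below and 14, 31, 18, 27 and 20 above. Their part in the difference was not tested either.

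Tbx21 had 366 lower and 409 upper contacts at 50 to 250 kb for 124 expected, 2.96 and 3.30 times. Il12rb2 had 123 and 119 for 61.3, 2.01 and 1.94 times, but 7 for 27.2 expected at 300 to 500 kb on the upper side, the stretch with few fragment ends. Hlx was closest to the expected level, with 83 and 72 for 56.7, 1.46 and 1.27 times.

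**Figure D3:**
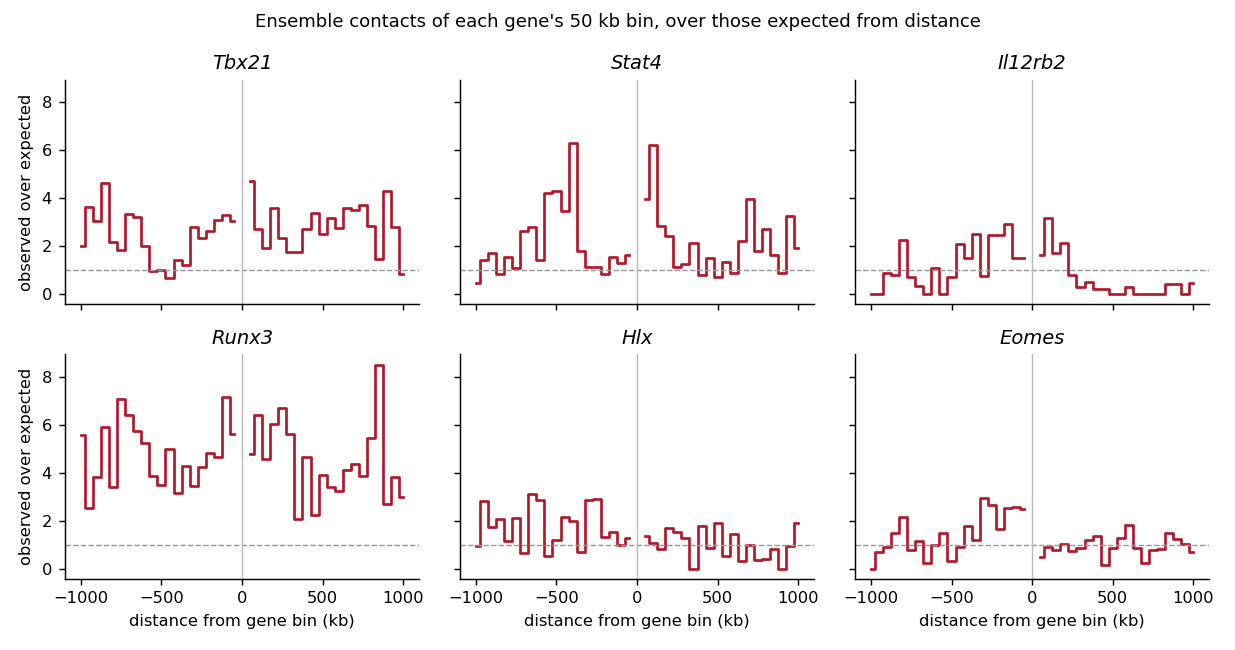
Ensemble contacts of each gene's 50 kb bin with bins up to 1000 kb away (x axis, distance in kb), observed over expected from distance (y axis, dashed line at 1). Runx3 is above 2 at every distance drawn, Stat4 has peaks on both sides, and the upper side of Eomes runs near 1.

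Contacts beyond the neighbourhood divided the members further. Of cis contact ends, those within the chromosome, 15.3% at Runx3 reached over 10 Mb in the ensemble, against a matched median of 45.3%, and 0.609% of matched windows had less. In the pool the share was 9.57%, against 31.4%. Runx3 lies 20.9 Mb from the last contact end of its chromosome. Among 155 windows matched also on that distance, within 5 Mb, a choice made after seeing the data, the ensemble median was 42.0% and 0.645% had a lower share than Runx3. At Eomes, 5.67 Mb from the end of its chromosome, 35.3% reached over 10 Mb. Of its matched windows 7.23% had a lower share, and of those matched also on the distance to the end 30.3% did. Il12rb2 had the highest share of the members, 56.6%, above 95.7% of matched windows, and 34.7% in the pool, above 66.7%. With the distance to the end matched it was above 82.1% in the ensemble and 47.6% in the pool. Hlx, with 45.7%, was above 44.8% of matched windows in the ensemble but above 97.5% of those matched also on the distance to the end, 10.6 Mb in its case.

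Shares of trans contacts were close to the genome's in the ensemble and spread widely in the pool. In the ensemble the trans share was 48.8% at Il12rb2, 48.4% at Stat4, 50.9% at Tbx21, 54.0% at Runx3, 46.5% at Hlx and 50.6% at Eomes, and 3 of 6 exceeded the autosomal 50.5%, against 50.6% of other windows. Above the median of their own matched windows were 2 of 6, Runx3 and Eomes. That count was 1 with windows of 100 kb or 500 kb on each side or with matched windows of class 1 only, the last chosen after seeing the data, and 4 with each window set against its own chromosome.

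In the pool Runx3 had 349 trans ends of 997, a share of 35.0% (32.1 to 38.0), against 20.2% over the autosomes, and it exceeded 99.5% of matched windows. Eomes had 291 of 995, 29.2% (26.5 to 32.1), above 97.2%, and Tbx21 had 331 of 1151, 28.8% (26.2 to 31.4), above 77.0%. Among matched windows of class 1 alone, chosen after seeing the data, Runx3 was above 99.1%, Eomes above 91.9% and Tbx21 above 76.7%. Stat4 at 20.4% and Il12rb2 at 19.3% had intervals that held the autosomal share. Hlx was low, with 172 of 1166 or 14.8% (12.8 to 16.9), and 14.6% of its matched windows were lower still. Set against the mean of its own chromosome, Hlx was above 41.4% of matched windows, Tbx21 above 58.5%, Eomes above 96.6% and Runx3 above 99.9%. Of the 6 members, 4 were above the autosomal share, against 42.8% of other windows. Without the 9 listed cells the pool gave 35.7% at Runx3, 28.6% at Eomes, 28.7% at Tbx21 and 14.8% at Hlx. There 3 of 6 were above the autosomal 20.4%, since Stat4 had 20.2%, against 42.6% of other windows.

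**Figure D4:**
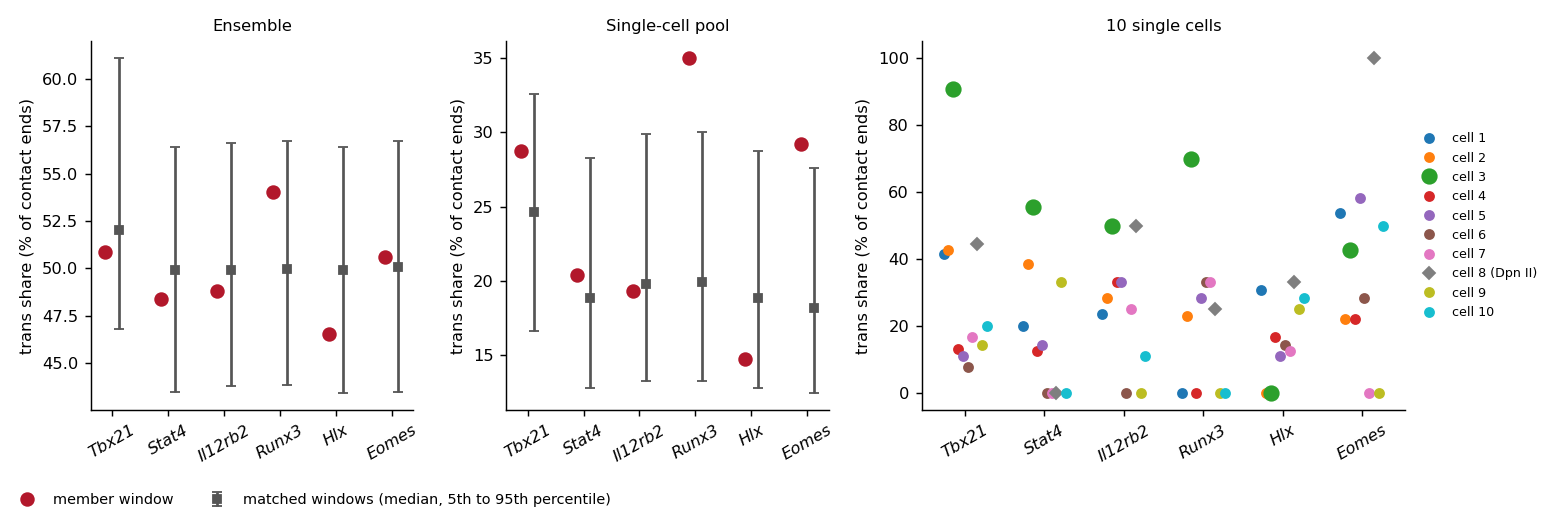
Trans share (y axes, percent of contact ends) of the 6 member windows in the ensemble and the pool, red beside the median and 5th to 95th percentile of matched windows in grey, and in each of the 10 cells. Runx3 at 35.0% and Eomes at 29.2% lie above the range of their matched windows in the pool, and cell 3 (large green points) gives the highest share at Tbx21 and Runx3. The matched windows are of both classes.

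Single cells had few contacts per window, a mean of 7 ± 3.16 contact ends at Runx3 to 9.44 ± 3.47 at Tbx21 (SD, n = 9 Bgl II cells). The question there is whether a window's trans ends exceeded the number expected from each cell's own trans share. Eomes had 7, 2, 3, 2, 7, 2, 0, 0 and 4 trans ends of 13, 9, 7, 9, 12, 7, 4, 4 and 8 in cells 1 to 7, 9 and 10. Cells 1, 5 and 10 were high and cells 7 and 9 had none. Together 27 of 73 ends were trans for 13.0 expected, an excess of 19.2 percentage points (exact two-sided sign-flip permutation p = 0.0859, adjusted p = 0.491 over 4179 windows). In cell 8, the Dpn II cell, 4 of 4 ends at Eomes were trans, and with all 10 cells the excess was 22.2 points (exact two-sided sign-flip permutation p = 0.043, adjusted p = 0.352).

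Tbx21 had 5, 3, 10, 2, 1, 1, 1, 1 and 1 trans ends of 12, 7, 11, 15, 9, 13, 6, 7 and 5 in the same cells, where cell 3 stood apart. The sum was 25 of 85 for 15.2 expected (exact permutation p = 0.359, adjusted 0.756). Runx3 had 0, 3, 7, 0, 2, 2, 2, 0 and 0 of 8, 13, 10, 7, 7, 6, 6, 3 and 3, again with its highest number in cell 3, and 16 of 63 in all for 12.1 expected (exact permutation p = 0.574, adjusted 0.865). Without cell 3 the excess was 3.50 points at Tbx21, against 11.6 with it, and -1.04 points at Runx3, against 6.27 with it.

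Stat4 had 16 of 70 trans ends for 12.9 expected (exact permutation p = 0.488), Il12rb2 19 of 69 for 12.3 (exact permutation p = 0.199) and Hlx 12 of 82 for 15.1 (exact permutation p = 0.594). The sums were above expectation in 5 of 6 members, against 45.9% of other windows, and Hlx was the member below. In the 9 Bgl II cells none of the 6 members passed, with or without adjustment, and with all 10 cells Eomes alone had an unadjusted p under 0.05. Of all 4179 windows 0 passed with Benjamini-Hochberg adjustment, 500 or 12% had an unadjusted p under 0.05, and 121 or 2.9% did so with a higher share. With 9 cells the smallest p is 0.00391, so the adjusted test can pass only if very many windows reach it together.

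The partners in trans were mostly of class 1. Of trans partners at Runx3, 77.6% lay in class 1 in the ensemble, above 99.9% of matched windows, and 86.7% in the pool, where matched windows had a median of 57.6%. Tbx21 had 74.1% and 85.2%, Stat4 64.4% and 67.5%, Eomes 63.5% and 66.7%, and Il12rb2 58.2% and 57.9%. Hlx had the lowest shares, 52.4% in the ensemble and 44.4% in the pool. Over the autosomes the shares were 59.3% and 53.2%. In the 9 Bgl II cells all 16 trans partners of Runx3 were of class 1 (95% Wilson interval 80.6% to 100%), as were 24 of 27 at Eomes, 17 of 24 at Tbx21, 12 of 15 at Stat4, 13 of 18 at Il12rb2 and 8 of 12 at Hlx. Over the autosomes of these cells the share was 49.7% to 61.7%. The interval counts each contact as independent, but 7 of the 16 at Runx3 were in cell 3, some of them side by side. It is therefore too narrow.

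Partners in cis were more often of class 1 for most members. Among 500 kb bins over 5 Mb away, the median of ensemble contacts over those expected from distance was 2.15 in class 1 bins and 0.267 in class 2 bins for Tbx21, 2.38 and 0.538 for Stat4, and 1.65 and 0.694 for Il12rb2. Runx3 had 1.06 and 0.164, and Eomes 1.68 and 0.827. Hlx, near the border between the classes, had 2.40 and 2.22. With the totals of both bins in the expectation, the medians were 0.96 and 0.923 for Il12rb2 and 0.912 and 0.773 for Eomes, and for Hlx the order turned, with 1.17 in class 1 and 1.58 in class 2. Tbx21, Stat4 and Runx3 kept the higher median in class 1, at 0.876 against 0.214, 1.41 against 0.714 and 0.304 against 0.119. Of the 3 leading cis bins of each member by distance alone, 18 in all, 15 were of class 1, and 2 of the other 3 belonged to Hlx and 1 to Il12rb2. Class 1 made up 80 of 146 ranked bins for Tbx21, 46 of 126 for Stat4 and 64 of 155 for Il12rb2. For Runx3 it was 50 of 94, for Hlx 32 of 76 and for Eomes 58 of 125.

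For Stat4 the leading cis bin was chr1:88000001-88500000, with 96 contacts for 20.3 expected, 4.73 times (3.83 to 5.77). The pool, which did not choose it, had 3 contacts for 1.21. Single cells had 3, at 88.0433 and 88.3815 Mb in cell 1 and 88.0101 Mb in cell 7. Both cells are part of the pool, so these 3 contacts can account for all 3 of the pool. The rest of the pool then adds none. For Eomes it was chr9:96000001-96500000, with 150 for 35.7, 4.20 times (3.55 to 4.92), with 5 for 2.03 in the pool. The leading bin of Hlx, chr1:169000001-169500000, had 116 for 28.7 and 6 for 1.79 in the pool.

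For Tbx21 the leading cis bin was chr11:75500001-76000000, with 177 contacts for 47.1, 3.76 times (3.22 to 4.35), and 5 for 1.85 in the pool. For Il12rb2 it was chr6:82500001-83000000, with 101 for 32.7, 3.09 times. Runx3 led with chr4:148500001-149000000, 114 for 36.5 or 3.12 times (2.57 to 3.75), but the pool had 2 for 2.23. Once the totals of both bins entered the expectation, a change made for the same bins after seeing the data, the ratio was 2.23 (1.89 to 2.62) at Eomes, 1.68 (1.36 to 2.05) at Stat4, 1.66 (1.37 to 1.99) at Hlx and 1.26 (1.08 to 1.46) at Tbx21. It was 1.18 (0.96 to 1.43) at Il12rb2 and 0.85 (0.70 to 1.02) at Runx3, with intervals that held 1. However, 1 was not the usual level of this ratio for every member. Its median over all ranked bins was 0.193 for Runx3, 0.441 for Tbx21, 0.861 for Eomes, 0.915 for Stat4, 0.929 for Il12rb2 and 1.39 for Hlx. The Runx3 bin ranked 2 of 94 and the Il12rb2 bin 36 of 155. By that expectation only the Eomes bin still led its member's ranking.

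Contacts of Tbx21 over 5 Mb away in cis came back to the same stretches in different cells. Ends at 77.9386, 78.254, 78.35 and 78.649 Mb of chromosome 11 were met in cells 10, 7, 9 and 6. Counting pairs of cells with a partner within 1 Mb of each other's, Tbx21 had 11 of the 45 pairs, against a median of 4 in 1327 windows with a similar number of such contacts, of which 96.8% had fewer pairs. Other members had 1 to 4 pairs. A shared stretch in at least 1 pair of cells is common, at 97.3% of windows within 5 of the members' median number of such contacts, and at least 3 pairs at 69%. How far the number depends on a window's place on its chromosome was not tested.

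In trans, partners were ranked where at least 10 contacts were expected, which left 620 bins of 500 kb for Tbx21, 437 for Runx3, 20 for Eomes and 1 each for Stat4, Il12rb2 and Hlx. These ranked bins did not centre on a ratio of 1, and 436 of 437 at Runx3 and 617 of 620 at Tbx21 were of class 1. Median ratios were 1.71 at Runx3 and 1.35 at Tbx21, with 95th percentiles of 3.52 and 2.13. Runx3 had the highest ratios. Its bin chr17:29000001-29500000 had 62 contacts for 13.8 expected, 4.49 times (3.45 to 5.76), with 3 for 0.167 in the pool. Cell 6, which is part of the pool, had 1 at 29.2598 Mb. Next were chr10:80000001-80500000, 48 for 11, and chr17:26500001-27000000, 55 for 12.7, of which the pool had 0 for 0.140 and 3 for 0.181. Tbx21 led with chr5:122500001-123000000, 65 for 21.7 or 3.00 times (2.32 to 3.83), chr2:32000001-32500000, 64 for 23.0, and chr2:30000001-30500000, 54 for 20.0, and the pool had 0 contacts in the first 2 for 0.211 and 0.260 expected. In bins of 2 Mb, added after seeing the data, the third bin of Tbx21 was chr4:134000001-136000000, the stretch that holds Runx3, with 183 contacts for 86.3, 2.12 times (1.82 to 2.45), and 0 in the pool for 1.00 expected.

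Among the 15 pairs of members, Tbx21 and Runx3 had the most contacts for their expectation. Their windows shared 49 ensemble contacts for 22.5 expected, 2.18 times (1.61 to 2.88). Against the Tbx21 window this exceeded 98.6% of 148 bins of chromosome 4, and 98.2% of its 111 class 1 bins. Against the Runx3 window it exceeded 96.6% of 203 bins of chromosome 11, and 93.8% of its 112 class 1 bins. The other 14 pairs of windows had 2 to 11 contacts, with intervals that all held 1. Stat4 and Hlx, on the same chromosome, shared 3 for 4.61 expected.

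No pair of windows had a contact in any of the 10 cells, and Tbx21 and Runx3 had 0 in the pool for 0.288 expected. The pool had 1 contact each for Tbx21 with Stat4 (0.0872 expected) and with Eomes (0.255). It also had 1 each for Stat4 with Il12rb2 (0.0694), Il12rb2 with Eomes (0.087) and Runx3 with Eomes (0.168), and 0 for the remaining pairs. With 2 Mb on each side, chosen after seeing the data, Tbx21 and Runx3 had 2150 ensemble contacts for 1239, 1.73 times (1.66 to 1.81), and the pool had 35 for 15.7. Cell 3 gave 5 of these, and cells 7 and 10 gave 1 each. With 5 Mb on each side the ensemble had 6514 for 4946 and the cells 14, of which 9 were in cell 3 and 4 in cell 7. At that width the pair, at 1.32 times (1.29 to 1.35), was no longer separate from Hlx and Eomes, at 1.29 times (1.24 to 1.35), and Runx3 and Eomes had 9 contacts in the cells, 8 of them in cell 5.

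The other 13 trans pairs at 2 Mb had ratios of 0.724 to 1.25. Hlx and Eomes had 267 for 214, 1.25 times (1.10 to 1.41), with 11 for 3.50 in the pool and 0 in the cells. Stat4 and Runx3 had 351 for 287, 1.22 times (1.10 to 1.36), with 4 for 3.72 in the pool. Il12rb2 with Eomes, at 0.724, was the lowest.

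**Figure D5:**
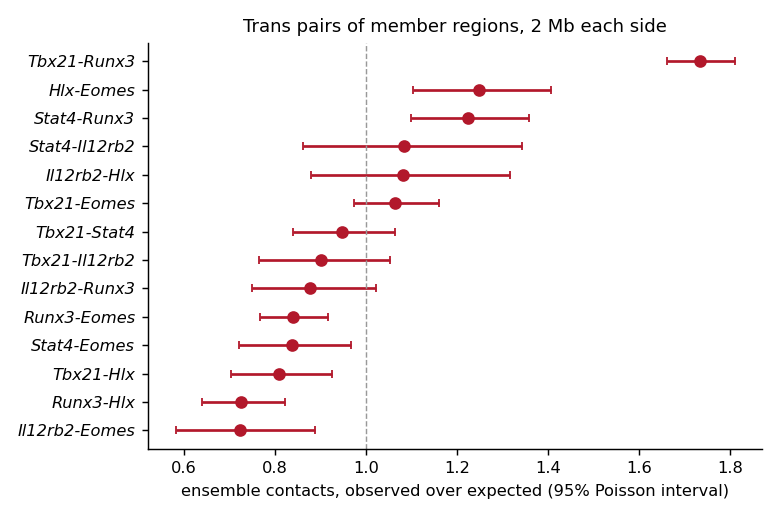
Ensemble contacts over expected (x axis, with 95% Poisson intervals) for the 14 trans pairs of members with 2 Mb on each side of each gene (y axis). Tbx21 with Runx3, at 1.73, is separate from the other pairs, which lie between 0.724 and 1.25.

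In cell 3 the Tbx21 window had 4 of its 10 trans contacts at 133.125, 133.496, 133.554 and 133.845 Mb of chromosome 4, within 2 Mb of Runx3 on its lower side. The Runx3 window in the same cell had contacts at 94.4495 and 95.1791 Mb of chromosome 11, below Tbx21, and at 78.2715 and 78.2779 Mb, a stretch that Tbx21 met in cis in other cells. At least 4 trans contacts within 1 Mb were found in cell 3 in 3.23% of the 217 windows within 3 of the trans contacts of Tbx21 there, and in any cell in 5.31% of the 245 windows within 3 of its 29 over the 10 cells. Contacts of 1 cell that lie side by side are not independent, and Tbx21 and Runx3 were singled out after their values were seen.

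Trans partners within 1 Mb in 2 cells were found for 3 of 6 members, against 8.4% of all windows with a trans contact in the cells. Among windows within 3 of the member's own number of trans contacts, the share was 9.74% for Runx3, 7.46% for Hlx and 35.7% for Eomes. Runx3 met chromosome 14 at 70.4601 Mb in cell 6 and at 70.725 Mb in cell 8, Hlx met chromosome 3 at 153.036 Mb in cell 1 and 152.931 Mb in cell 4, and Eomes met chromosome 11 at 121.615 Mb in cell 1 and 120.718 Mb in cell 6. In the ensemble the 2 Mb around these places had 1.76 times (1.16 to 2.55) the expected contacts for Hlx, with 3 for 0.237 in the pool. Cells 1 and 4, whose contacts set that place, are part of the pool, so the pool number is no separate check. For Runx3 the ratio was 0.84 (0.57 to 1.18) and for Eomes 0.66 (0.41 to 1.00). By whole chromosomes, the Runx3 window met chromosome 11 at 1.49 times the expected number in the ensemble and 2.18 times in the pool, and the X at 0.67 and 0.28 times. Chromosome 11 was not alone, as chromosome 17 was at 1.40 and 1.49 times. Chromosome 15 was at 1.28 and 1.13 times, and chromosome 19 at 1.25 and 1.14 times.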

How the data were processed

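Contact maps were deposited as genomic positions in mm9, per the submitters' processing notes: each line gives the chromosome and position of the 2 ends of a contact, per the file headers. The deposited files hold distinct contacts without read numbers, so a pair of ends joined in many cells counts once. Dropped were 3 contacts of cell 8 that touched mitochondrial DNA. Aligner and read filters: not given in the sources used here.

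Everything else was computed here with matplotlib 3.10.9, pandas 2.3.3, scipy 1.17.1 and numpy 2.4.6 under Python 3.11.15. Contact ends were counted per 500 kb window. Ensemble matrices were balanced by 50 iterations without bins whose row sum was below 0.2 of the median. The compartment sign was set by fragment-end density, so classes are numbered. A partner bin's expected trans count was its share of all trans contacts of the member's chromosome, and for pairs of members its share within that pair of chromosomes. Expected cis counts used distance. Ranked partner bins had at least 138 fragment ends, 0.5 of the median, and at least 20 expected contacts in cis or 10 in trans.

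The trans share was tested by exact sign-flip permutation over the 9 Bgl II cells (512 sign patterns) in every autosomal window with at least 50 contact ends in them, with Benjamini-Hochberg adjustment and a threshold of 0.05, and checked on simulated cells. The labels name no separate cultures or animals, so the p-values measure the spread between these cells alone, which may be technical. The named genes were the 6 members with all values, and for each the 3 leading cis and trans bins of 500 kb. Members, measures and lists were chosen with earlier results of these data known. Alternatives were other windows, bins, matching, expectations, and each cell left out in turn.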

Additional observations from a re-analysis of the deposited data

Results flagged for a closer look

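The trans share of the Tbx21 window was 90.9% in cell 3, 10 of 11 contact ends, far above the next of the 9 Bgl II cells, 42.9% in cell 2. The trans share of the Runx3 window was 70.0% in the same cell, 7 of 10, with 33.3% as the next. Both were picked out because the gap to the nearest cell was large for the range of the group by Dixon's criterion. The search covered 12 sets of values, 2 for each member, and chance picks out about 1 in 20. Cell 3 had a trans share of 25.0% over all contacts.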

How the results depend on the processing

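The count of members with an ensemble trans share above the median of their matched windows was 2, and became 1 with windows of 100 kb on each side, 1 with 500 kb on each side, 4 with the same chromosome as the comparison and 1 with matched windows of class 1 only. In the pool that count was 4 and ran from 3 to 5 over its alternatives. Class 1 held 5 members with bins of 100 kb, 250 kb or 1 Mb and 6 without balancing, when Hlx scored 0.0273. Insulation without balancing was 0.1408 at Stat4 and 0.4417 at Hlx, and in the pool 0.1294 at Hlx, all on the other side of 0. The excess of trans ends changed sign at Hlx without replicate 2 (0.4228 points), at Runx3 without replicate 3 (-1.0404 points) and at Stat4 with 500 kb on each side (-0.7022). With bin totals in the expectation the leading cis partner of Runx3 was at 0.8459 of the expected contacts, and the bin that then led at 0.8536. The median over the ranked bins of Runx3 was 0.193 by that expectation. The cause of these changes was not tested. Leaving out each cell in turn moved the excess from 3.4998 to 16.5579 points at Tbx21, from -1.0404 to 10.1759 at Runx3, from -8.9344 to 0.4228 at Hlx and from 13.1929 to 22.4018 at Eomes, with adjusted p of 0.4406 at the lowest for Eomes, and 0 windows passed under any alternative run for that test. Leading cis partners of class 1 numbered 14 to 16 of 18. Other matching was run for the trans share and, within 20%, for contacts over 10 Mb, other window sizes for the trans share alone, and neither was run for the remaining shares. No paired analysis was possible because the cells form a single group and their numbers pair no samples. Depth limits the cells most, with 63 to 85 contact ends per member over 9 cells.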

Other observations

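The Tbx21 and Runx3 windows ranked differently in coverage by map. In the ensemble Tbx21 had 127 contact ends per fragment end, above 91.1% of matched windows, and in the pool 2.73, above 0.741%. Stat4 had 84.0 in the ensemble, above 59.8%, and 4.02 in the pool, above 92.9%. Hlx was above 66.0% in the ensemble, with 90.6, and above 86.1% in the pool, with 3.90. Eomes had 123 in the ensemble, above 95.6%, and 3.67 in the pool, above 73.4%. Among matched windows of class 1 alone, Eomes was above 85.6% in the ensemble and 51.3% in the pool. Stat4 was above 22.6% and 88.8% of such windows, and Tbx21 above 91.0% and 0.752%. The ensemble lists a pair of ends once however many cells joined it, and each cell holds few copies of a locus. Whether either bears on these ranks was not tested.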
